A study of Solanum chacoense with 24 samples.

Results

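Among the leaf genes of the wild potato relative Solanum chacoense, 100 genes had fewer reads in cages given Colorado potato beetles than in the beetle-free cage of the same genotype, in each of 2 genotypes and at each of 2 harvests. They were the 100 of 19825 genes with a mean of at least 1 CPM (counts scaled to the counts on all genes of the library, per 1000000) whose highest of 4 differences was lowest, out of 32917 gene identifiers in all. Each difference was the mean level of the beetle libraries minus that of the control libraries on the scale log2(CPM + 1), for USDA8380-1 and for EE501F2_093 at 24 and at 48 h. The genes were selected on these differences, which are therefore given as a description, without a test. The 0 h libraries entered the choice only through the minimum mean CPM, which was taken over all libraries. Differences between the arms or the genotypes at 0 h and the position in the genome did not enter it.

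The study followed the leaf response of both genotypes to beetle feeding in 24 stranded mRNA libraries, 2 for each genotype, arm and harvest. The groups were USDA8380-1 with beetles at 0, 24 and 48 h, USDA8380-1 control at 0, 24 and 48 h, EE501F2_093 with beetles at 0, 24 and 48 h, and EE501F2_093 control at 0, 24 and 48 h. All plants came from in vitro plantlets and were 15 weeks old when 50 adult beetles were released, and the 0 h harvest preceded the release in both arms. The 6 plants of a genotype stood in 3 cages, 2 of which received beetles while 1 served as control, so that a cage difference and a beetle effect cannot be told apart within a genotype. A library was made from pooled tissue of leaf number 3, counting fully expanded leaves. The labels do not say which plants entered which pool, and the same plants were sampled over the harvests, so the p-values below treat libraries as independent and measure the spread between such pools. In whole leaves, fewer cells of a type and less RNA per cell cannot be told apart.

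Chewing insects set off wound and jasmonate signalling in leaves of the nightshade family, which turns on defence proteins such as proteinase inhibitors. Genes of photosynthesis and growth are often lowered at the same time. Solanum chacoense is known for glycoalkaloids in its leaves, among them the leptines, which deter the Colorado potato beetle. No source used here pairs the gene identifiers with names, so 0 of the 100 genes carry one, no pathway or cell type list could be tested, and nothing is said of what these genes do.

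Counts on genes lay between 25050119 and 51999317 in 23 libraries and at 2114184 in USDA8380-1 beetle 0 h replicate 3. That shallow library also had 17.4% of its reads outside genes or ambiguous, against at most 12.0% in the other 23. It gave at least 1 count for 97 of the 100 genes, where every other library gave at least 1 for all of them. USDA8380-1 control 24 h replicate 2 also stood apart in these genes, and the differences and changes that rest on it are given below without it as well.

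The 100 genes were mostly well expressed, which follows in part from the rule. The 1 added to the CPM shrinks the differences of genes near 1 CPM, so genes of low level could less easily be chosen. Their mean over the 24 libraries ranged from 1.29 to 1517 CPM with a median of 32.9 CPM, against a median of 13.7 CPM over the 19825 genes. A mean of at least 100 CPM was reached by 24 of the 100 genes, against 8.22% of the 19825, and a mean under 5 CPM was found for 11 of the 100, against 26.1%. The gene with the fewest reads had 1083 counts over all libraries. All 100 passed the filter on low counts of the test used below.

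The median difference between the beetle and control libraries was -0.86 in USDA8380-1 at 24 h and -0.87 at 48 h, and -0.79 in EE501F2_093 at 24 h and -0.88 at 48 h. Over the 19825 genes the medians were -0.10, -0.11, 0.06 and -0.01 in the same order. The largest difference of any of the 100 genes was -2.64, in USDA8380-1 at 24 h. The rule took genes by rank, and its edge was narrow: the last 5 genes inside had a highest difference between -0.52 and -0.51, and the first 5 outside lay at -0.51. In all, 3144 genes (15.9%) had 4 differences below 0. Over all 24870 genes tested, edgeR's quasi-likelihood test called 0 at an adjusted p under 0.05 in each of these 4 comparisons, a share of 0%. In the same order, 2876, 1311, 771 and 693 genes had an unadjusted p under 0.05 by that test, and 232, 19, 1 and 5 were called by DESeq2. The 0 also rests on single libraries in USDA8380-1: without control replicate 1 at 24 h edgeR called 1831 genes, without control replicate 2 it called 6 and without beetle replicate 1 it called 98, and at 48 h it called 12 without control replicate 3. Since the comparisons chose the 100 genes, nothing is read from these counts about them.

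The summed level of the 100 genes shows where the differences lay. In USDA8380-1 at 24 h the beetle libraries held 9111 and 5270 CPM of these genes, against 7339 and 24031 CPM in the control libraries. The beetle libraries of 48 h held 4031 and 8549 CPM, against 17010 and 7336 CPM in the controls. In USDA8380-1 the arms overlapped at both hours, and in each case 1 control library stood far above the other.

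In EE501F2_093 the arms did not overlap. The beetle libraries held 9506 and 11172 CPM at 24 h, against 17113 and 19633 CPM in the controls. At 48 h they held 8568 and 12640 CPM, against 23060 and 18292 CPM in the controls. The summed level was 0.371% of all gene counts in the lowest library, USDA8380-1 control 0 h replicate 2, and 2.40% in the highest, USDA8380-1 control 24 h replicate 2.

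Ranked by the mean level of the 100 genes, control libraries of 24 and 48 h took the 6 highest places of 24. All 4 of EE501F2_093 were among them, with USDA8380-1 control 24 h replicate 2 in place 1 and USDA8380-1 control 48 h replicate 1 in place 4. The other 2, USDA8380-1 control 24 h replicate 1 and control 48 h replicate 3, were in places 16 and 20, among the beetle libraries. USDA8380-1 beetle 24 h replicate 1, in place 15, stood above both.

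**Figure D1:**
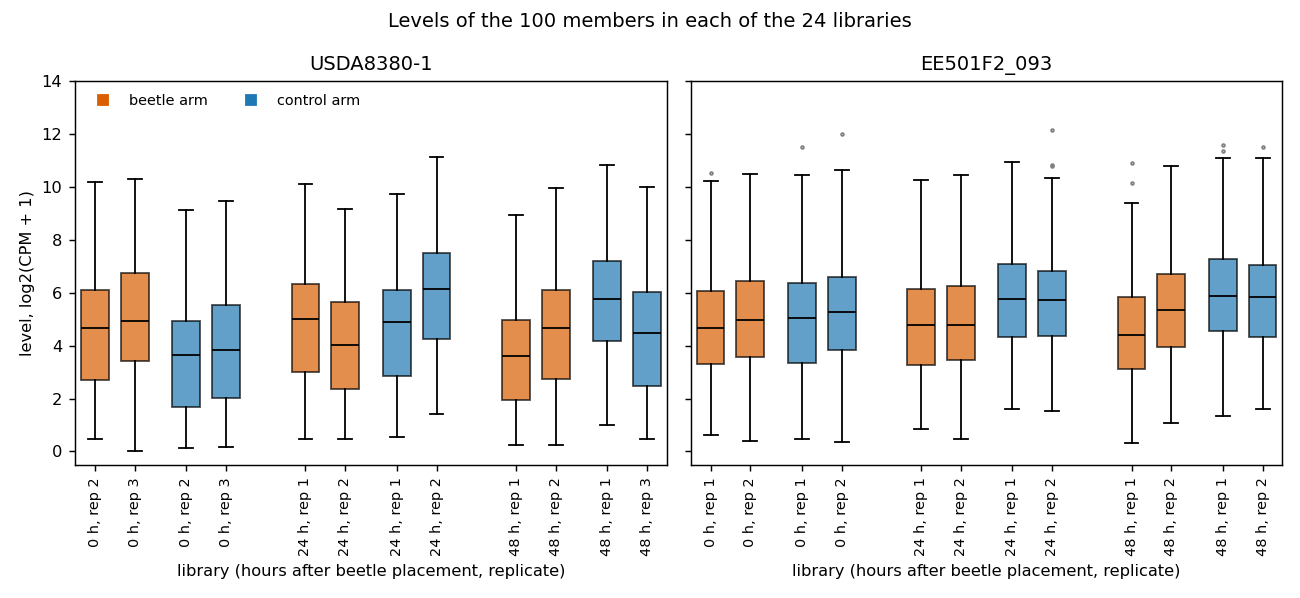
Levels of the 100 genes, in log2(CPM + 1), in each of the 24 libraries, with beetle libraries in orange and control libraries in blue. Boxes span the quartiles with the median as a line, whiskers reach the last value within 1.5 box heights, and dots are values beyond. At 24 and 48 h the medians of all EE501F2_093 controls stand above both beetle medians of the same hour, while in USDA8380-1 those of control 24 h replicate 2 and control 48 h replicate 1 do and those of the other 2 controls do not.

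Gene by gene the same was seen. In USDA8380-1 both beetle libraries lay below both control libraries for 31 of the 100 genes at 24 h, where 22.5% of the 19825 genes did so, and for 35 at 48 h, where 20.3% did. In EE501F2_093 this held for 86 of the 100 genes at 24 h, beside 11.4% of all genes, and for 57 at 48 h, beside 19.1%. At least 3 of the 4 comparisons were free of overlap for 39 of the 100 genes and for 3.84% of all genes. These counts follow in part from the choice of the genes and are a description. They also moved with single libraries: without control replicate 1 the 31 of USDA8380-1 at 24 h became 98 (37.5% of all genes), and without control replicate 2 they became 33 (46.4% of all genes). At 48 h in USDA8380-1 the 35 became 99 without control replicate 3 (49.8% of all genes) and stayed 35 without control replicate 1 (32.8%).

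The gene with the lowest rank was Soltu.DM.12G004820.1, on chromosome 12 by its identifier. In USDA8380-1 it had 2.51 and 1.04 CPM with beetles at 24 h, against 3.88 and 8.27 CPM in the controls. Its values at 48 h were 0.536 and 2.07 CPM with beetles, against 11.2 and 1.08 CPM in the controls. In EE501F2_093 it had 2.97 and 3.88 CPM with beetles at 24 h, against 14.1 and 7.12 CPM in the controls. The arms were apart in these comparisons except in USDA8380-1 at 48 h, where a control library lay between the beetle libraries. At 48 h in EE501F2_093 it had 3.01 and 4.73 CPM with beetles, against 16.4 and 6.54 CPM in the controls. Its 4 differences lay between -1.33 and -1.21. The beetle arm of USDA8380-1 had far more of it before the beetles, at 12.7 and 35.9 CPM, with 35.9 in the shallow library, than at either later harvest.

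The next gene, Soltu.DM.04G036670.1 on chromosome 4, was more abundant, at a mean of 104.0 CPM. In USDA8380-1 it had 111 and 24.1 CPM with beetles at 24 h, against 114 and 420 CPM in the controls. The 48 h libraries had 42.2 and 134 CPM with beetles, against 272 and 114 CPM in the controls. In EE501F2_093 it had 59.5 and 48.9 CPM with beetles at 24 h, against 164 and 144 CPM in the controls. The 24 h arms of EE501F2_093 were well apart, while in USDA8380-1 1 beetle and 1 control library were nearly level. At 48 h in EE501F2_093 it had 19.3 and 143 CPM with beetles, against 209 and 120 CPM in the controls, so that the arms overlapped again. Its differences lay between -2.05 and -1.21.

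The 5 most abundant of the 100 genes held 47.1% of their summed mean CPM. The first of them, Soltu.DM.01G050210.2, had 669 and 523 CPM with beetles in USDA8380-1 at 24 h, against 357 and 2260 CPM in the controls. Later, at 48 h, it had 459 and 559 CPM with beetles, against 816 and 1012 CPM in the controls. In EE501F2_093 it had 1114 and 1408 CPM with beetles at 24 h, against 1676 and 4487 CPM in the controls. Apart from USDA8380-1 at 24 h the beetle libraries were the lower ones throughout. At 48 h in EE501F2_093 it had 1896 and 519 CPM with beetles, against 3049 and 2880 CPM in the controls. In this genotype it was already lower in the beetle arm at 0 h, at 1480 and 1264 CPM, against 2932 and 4048 CPM in the control arm. In USDA8380-1 at 0 h it was higher in the beetle arm, at 842 and 907 CPM, against 553 and 703 CPM in the control arm.

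The next most abundant gene, Soltu.DM.02G023240.3, had 668 and 337 CPM with beetles in USDA8380-1 at 24 h, against 422 and 2224 CPM in the controls. At 48 h it had 288 and 968 CPM with beetles, against 1343 and 623 CPM in the controls. In EE501F2_093 it had 824 and 1408 CPM with beetles at 24 h, against 1973 and 1831 CPM in the controls. The arms overlapped in USDA8380-1 at both hours. At 48 h in EE501F2_093 it had 668 and 1762 CPM with beetles, against 2595 and 1613 CPM in the controls, again with overlap.

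Because each difference rests on 2 libraries against 2, each library was left out in turn. In USDA8380-1 at 24 h the median difference of the 100 genes was -0.20 without control replicate 2, with 74 genes below 0, and -1.60 without control replicate 1. It was -1.25 and -0.53 without beetle replicates 1 and 2. At 48 h it was -0.23 without control replicate 1, with 77 genes below 0, and -1.57 without control replicate 3, and -0.48 and -1.34 without beetle replicates 1 and 2. On the scale of edgeR's fit, which corrects for library composition, the median log2 fold change in USDA8380-1 at 24 h was -1.08, and without control replicate 2 it was 0.057, with 41 of the 100 genes below 0. At 48 h it was -0.90, and -0.13 without control replicate 1.

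In EE501F2_093 the differences moved less with single libraries at 24 h, where the median lay between -0.85 and -0.71 in the 4 cases. The 48 h median lay between -1.30 and -0.48, the last without beetle replicate 1. The choice of the genes itself rested on the same libraries of USDA8380-1. Without control 24 h replicate 2, the rule chose 29 of the 100 genes again, and without control 48 h replicate 1 it chose 35 again. Without any other of the 16 libraries of 24 and 48 h it chose 55 to 85 of them again.

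**Figure D2:**
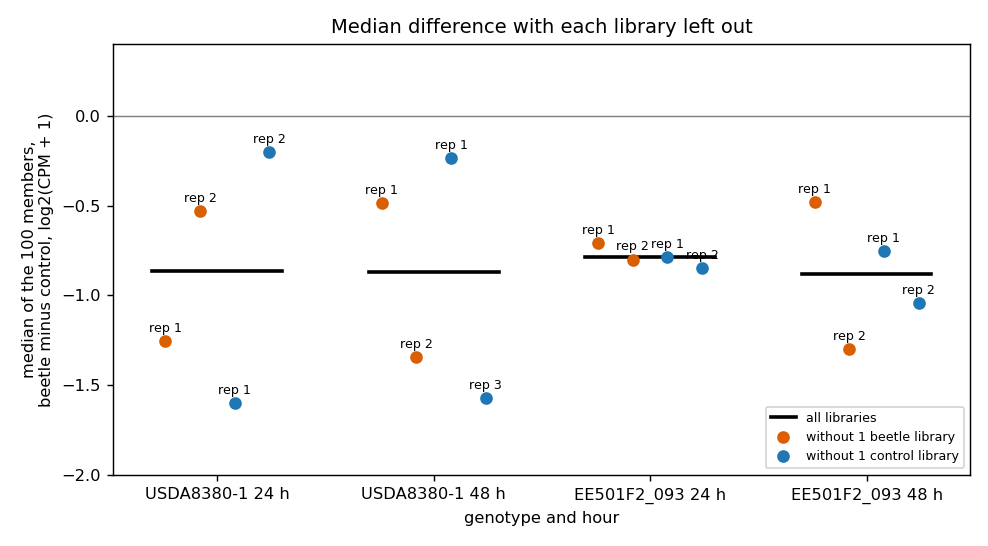
Median difference of the 100 genes, beetle minus control in log2(CPM + 1), for each genotype and hour. Black bars use all libraries, orange points leave out 1 beetle library and blue points 1 control library, with the replicate number written beside them. The points nearest 0 belong to USDA8380-1, at -0.20 without control replicate 2 at 24 h and -0.23 without control replicate 1 at 48 h.

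Set against the 0 h harvest of the same arm, the difference lay mostly in the control libraries. In EE501F2_093 with beetles the median change of the 100 genes from 0 h was -0.04 at 24 h and 0.02 at 48 h, with 56 and 49 genes below their 0 h level. In the EE501F2_093 controls it was 0.50 at 24 h and 0.64 at 48 h, with 94 genes above their 0 h level at each hour. In USDA8380-1 with beetles the median change was -0.31 at 24 h and -0.62 at 48 h, with 75 and 87 genes below their 0 h level. In the USDA8380-1 controls it was 1.56 at 24 h and 1.22 at 48 h, with 99 and 98 genes above it. Without control 24 h replicate 2 the 24 h value was 0.85, with 92 genes above the 0 h level, and without control 48 h replicate 1 the 48 h value was 0.61, with 88 genes above it.

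The arms already differed at 0 h, so the change depends on the baseline. Against the mean of both arms at 0 h, the beetle medians were 0.16 at 24 h and -0.13 at 48 h in USDA8380-1, with 39 and 63 genes below that mean. In EE501F2_093 they were -0.15 at 24 h and -0.10 at 48 h, with 70 and 59 genes below it. The control medians were 1.10 and 0.79 in USDA8380-1 and 0.61 and 0.77 in EE501F2_093. On either baseline the control medians lay above 0 in both genotypes, while the sign of the beetle medians turned in USDA8380-1 at 24 h and in EE501F2_093 at 48 h.

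Over the 19825 genes the median changes were smaller in size than those of the 100 genes, by the widest margin in the controls. They were -0.02 and 0.00 in EE501F2_093 with beetles and -0.06 and 0.04 in its controls at 24 and 48 h. In USDA8380-1 they were -0.16 and -0.27 with beetles and 0.22 and 0.14 in the controls. The controls were above their own 0 h level in both genotypes at both hours for 91 of the 100 genes and for 24.8% of all genes. The beetle libraries were below their own 0 h level in all 4 cases for 31 of the 100 genes and for 23.7% of all genes. For 61 of the 100 genes the control arm was farther from its 0 h level than the beetle arm in all 4 cases, as it was for 15.2% of all genes. Without USDA8380-1 control 24 h replicate 2 the 91 and 61 genes became 86 and 57, and without USDA8380-1 control 48 h replicate 1 they became 81 and 43. Without EE501F2_093 beetle 48 h replicate 1 the 31 genes became 17, beside 23.4% of all genes. The libraries of 24 and 48 h chose the genes, so these changes are not tested. The rule favours high control libraries and low beetle libraries, so such changes are partly built in. Against the 0 h level of the same arm, the median of the set in EE501F2_093 with beetles was -0.04 at 24 h and 0.02 at 48 h. Its 2 libraries of 48 h lay on opposite sides of that level. The 48 h median was 0.40 without beetle 48 h replicate 1 and -0.43 without beetle 48 h replicate 2. In USDA8380-1 with beetles the median was lower, at -0.31 and -0.62, where all genes also had medians below 0, at -0.16 and -0.27. Without beetle 24 h replicate 1 or 2 the 24 h median of the set was -0.67 or -0.02. Without beetle 48 h replicate 1 or 2 the 48 h median was -0.25 or -0.99. In both genotypes the controls stood higher than before. The set is therefore described by the difference between the arms, and whether its genes fall with beetles was not tested.

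**Figure D3:**
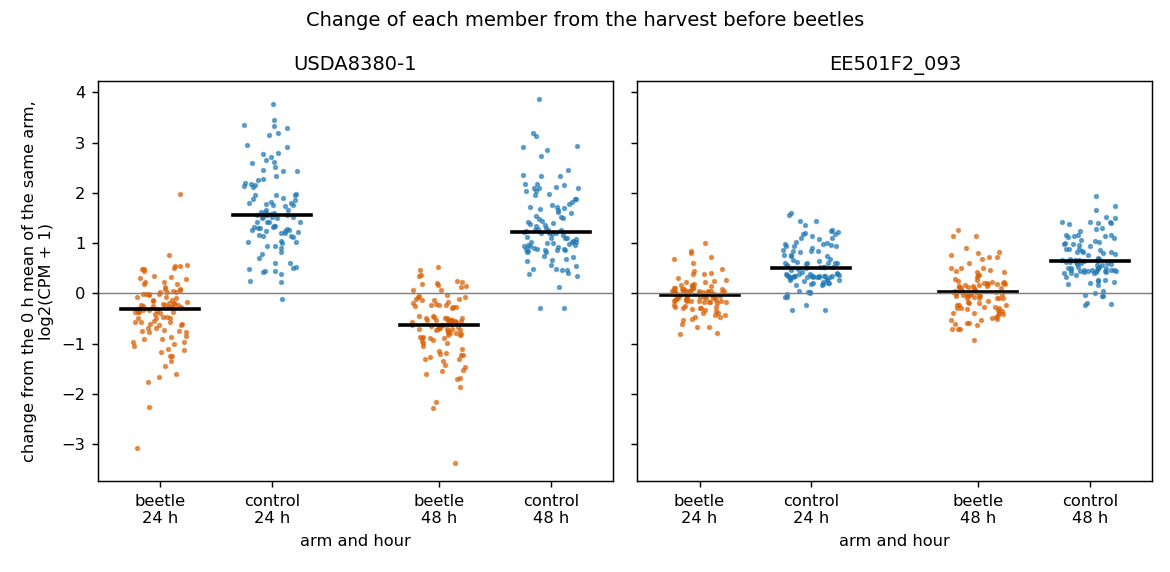
Change of each of the 100 genes from the 0 h mean of the same arm, in log2(CPM + 1), at 24 and 48 h, with beetle libraries in orange and controls in blue. Each point is 1 gene and the black bar is the median. The control medians are 1.56 and 1.22 in USDA8380-1 and 0.50 and 0.64 in EE501F2_093, and the beetle medians lie between -0.62 and 0.02.

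The harvest before beetles entered no difference used in the choice, so the arms can be compared there. In USDA8380-1 the plants assigned to beetles had more of these genes, at a summed 8854 and 11306 CPM, against 3707 and 5308 CPM in the plants assigned to the control cage. In EE501F2_093 the plants assigned to beetles had 10656 and 11465 CPM, against 12779 and 15755 CPM in the control plants. The arms were apart in both genotypes, in opposite directions. In USDA8380-1 the median difference between the arms was 0.92 on the log2(CPM + 1) scale, against 0.28 over the 19825 genes, and on the composition-corrected scale of edgeR it was 0.76 for the 100 genes and 0.00 for all genes tested. In EE501F2_093 the medians on the log2(CPM + 1) scale were -0.21 and 0.00, and -0.24 and 0.00 on edgeR's scale.

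In USDA8380-1 at 0 h, both libraries of the plants assigned to beetles lay above both control libraries for 80 of the 100 genes, where 39.6% of all genes did so, and 13.8% of all genes lay the other way. In EE501F2_093 they lay below both control libraries for 37 of the 100 genes, where 12.6% of all genes did, and 19.2% of all genes lay the other way. By edgeR's test, 0 of the 100 genes were called in USDA8380-1 (0.00402% of 24870 genes were). An unadjusted p under 0.05 was found for 20 of the 100 and for 13.0% of all genes. DESeq2 called 6 of the 100 and 374 genes in all. In EE501F2_093 edgeR called 0 of them (0% of all genes), while DESeq2 called 0, and 1 reached an unadjusted p under 0.05, as did 1.29% of all genes. With both genotypes averaged it called 0 (0% of all genes), while DESeq2 called 0, and 5 reached an unadjusted p under 0.05, beside 5.92% of all genes. The difference between the genotypes in this contrast, added after seeing the data, also gave 0 calls (0% of all genes), while DESeq2 called 0 of the 100 and 65 genes in all. An unadjusted p under 0.05 was reached by 15 of the 100 and by 7.34% of all genes. The median log2 value of this difference over the 100 genes was 1.09, USDA8380-1 minus EE501F2_093. These counts depended on the fit. In a fit of the 0 h libraries alone, 49 of the 100 reached an unadjusted p under 0.05 in USDA8380-1, beside 16.9% of all genes. In EE501F2_093 4 did, beside 710 of the 23678 genes of that fit. With both genotypes averaged 27 did (8.93% of all genes), and for the difference between the genotypes 46 did (10.7%). Without the shallow library the USDA8380-1 median was 0.64 on edgeR's scale, with 93 of the 100 genes above 0.

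**Figure D4:**
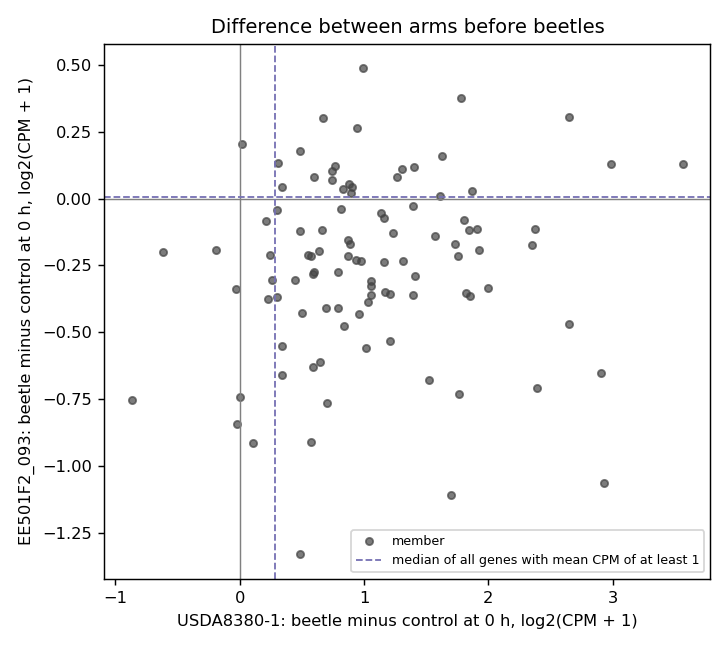
Difference between the arms before any beetle was placed, beetle minus control in log2(CPM + 1), for each of the 100 genes in USDA8380-1 (horizontal axis) and EE501F2_093 (vertical axis). Dashed lines mark the medians of the 19825 genes, 0.28 and 0.00. Most points lie to the right of 0 and below it. Of the 100 genes, 70 were higher in the beetle arm of USDA8380-1 and lower in that of EE501F2_093, as were 35.4% of the 19825 genes.

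The members farthest apart between the arms at 0 h were named by a rule on log2 fold change, and none of them passed the adjustment in edgeR's test. Soltu.DM.12G004820.1 had 12.7 and 35.9 CPM in USDA8380-1 plants assigned to beetles, against 0.587 and 1.27 CPM in the controls, which is 4.35 on the log2 scale (SE 0.96) with an edgeR adjusted p of 0.214 and a DESeq2 adjusted p of 0.00046. Soltu.DM.07G028300.1 had 4.71 and 32.6 CPM, against 0.261 and 1.43 CPM, which is 4.04 on the log2 scale (SE 1.33) with an edgeR adjusted p of 0.278 and a DESeq2 adjusted p of 0.0212. For both, the higher beetle value came from the shallow library, without which they were at 3.56 and 2.30. Both also led the average of the 2 genotypes, at 2.22 (SE 0.62, edgeR adjusted p = 0.828) and 2.09 (SE 0.86, edgeR adjusted p = 0.833), and at 1.82 and 1.22 without the shallow library.

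At the other end, Soltu.DM.02G024830.1 had 16.6 and 15.6 CPM in USDA8380-1 plants assigned to beetles, against 28.6 and 31.9 CPM in the controls, or -1.19 on the log2 scale (SE 0.69, edgeR adjusted p = 0.462). Soltu.DM.09G023510.1 was nearly level, at 10.8 and 11.8 CPM, against 12.9 and 13.3 CPM in the controls (log2 fold change -0.51, SE 1.07, edgeR adjusted p = 0.866). In EE501F2_093 the lowest values were those of Soltu.DM.10G007030.1, at 0.550 and 0.499 CPM, against 1.23 and 2.36 CPM in the controls (log2 fold change -1.74, SE 1.13, edgeR adjusted p = 1), and Soltu.DM.10G004220.1 (-1.35, SE 1.19, edgeR adjusted p = 1), which ranged from -2.28 to -0.78 with single libraries left out. Soltu.DM.02G024830.1 and Soltu.DM.10G007030.1 were also lowest with the genotypes averaged, at -1.01 (SE 0.48, edgeR adjusted p = 0.837) and -0.64 (SE 0.84, edgeR adjusted p = 0.939). The highest in EE501F2_093 were Soltu.DM.06G030110.1 at 0.74 (SE 1.16, edgeR adjusted p = 1), which fell to -0.12 without beetle replicate 1, and Soltu.DM.06G015140.1 at 0.62 (SE 1.10, edgeR adjusted p = 1). Each of these 4 values of EE501F2_093 lay within 2 standard errors of 0.

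Before beetles most of these genes were lower in USDA8380-1 than in EE501F2_093, but most calls of single genes did not hold in every fit with a library left out. At 0 h, edgeR's test called 31 of the 100 genes between USDA8380-1 and EE501F2_093, 30 lower in USDA8380-1 and 1 higher. Over all 24870 genes, 16.6% were called, 7.8% lower in USDA8380-1 and 8.76% higher. The median log2 fold change of the 100 genes, USDA8380-1 over EE501F2_093, was -0.93, with 88 of them below 0, against a median of -0.02 over all genes tested. The 30 genes called lower had log2 fold changes between -2.80 and -0.82. This difference lay mostly in the control plants. There the mean level of the 100 genes, in log2(CPM + 1), was 3.52 and 3.93 in USDA8380-1, against 5.017 and 5.345 in EE501F2_093. In the plants assigned to beetles the genotypes overlapped, at 4.599 and 4.971 against 4.811 and 5.055. The control plants of a genotype stood in 1 cage, and whether the difference belongs to the genotype or to the cage was not tested. The higher abundance of the 100 genes, at a median of 32.9 against 13.7 CPM, stands beside these counts, and its part in them was not tested. Reads of the genotypes may also map unequally well to a gene, which was not tested.

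Soltu.DM.07G027840.1 had the lowest of these values. It averaged 0.554 ± 0.510 CPM in USDA8380-1 and 3.71 ± 1.54 CPM in EE501F2_093 at 0 h (SD, n = 4 each), or -2.80 on the log2 scale (SE 0.70, edgeR adjusted p = 0.0126). Its 4 USDA8380-1 libraries had 0.163 to 1.30 CPM, below the 1.71 to 5.47 CPM of EE501F2_093. Soltu.DM.08G010200.1 averaged 1.49 ± 1.20 CPM in USDA8380-1 and 7.38 ± 3.29 CPM in EE501F2_093 (SD, n = 4 each), or -2.73 on the log2 scale (SE 0.69, edgeR adjusted p = 0.0140). The genotypes did not overlap in either gene. Without replicate 2 of the USDA8380-1 controls at 0 h, the edgeR adjusted p of Soltu.DM.07G027840.1 was 0.0566 and that of Soltu.DM.08G010200.1 was 0.0588, so that both calls ended. The call of Soltu.DM.08G010200.1 also ended on leaving out replicate 2 of the beetle arm at 0 h, in USDA8380-1 with an edgeR adjusted p of 0.0680 and in EE501F2_093 with one of 0.0600.

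Soltu.DM.06G014640.1 was the gene called higher. It averaged 40.5 ± 22.6 CPM in USDA8380-1 and 12.2 ± 3.26 CPM in EE501F2_093 at 0 h (SD, n = 4 each), or 1.63 on the log2 scale (SE 0.44, edgeR adjusted p = 0.0192). Its USDA8380-1 libraries had 22.2 to 72.8 CPM, above the 9.68 to 17.0 CPM of EE501F2_093. The call ended without USDA8380-1 beetle 0 h replicate 3 or any of the 4 EE501F2_093 libraries, with edgeR adjusted p between 0.0515 and 0.0730. Leaving out each of the 8 libraries in turn left 9 to 16 of the 100 genes called, while 8.24% to 13.3% of all genes were called in the same fits, so that the share of the 100 genes was then near that of all genes. Of the 31 genes, 6 were called in each of these 8 fits, 9 in none of them, and 31 kept their sign in all of them.

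The 100 genes moved together from library to library. Taken as deviations from the mean of the group of 2, their levels correlated across the 24 libraries with a median r of 0.62 over all pairs of the 100 genes, against 0.06 over all pairs of the 19825 genes. Of the pairs, 94.0% were positive. The median was 0.73 in the 12 libraries of USDA8380-1, 0.38 in the 12 of EE501F2_093 and 0.37 in the 8 libraries of 0 h. Without the 2 groups that hold a library standing apart it was 0.61 over 20 libraries. Each pair of replicates gives 1 independent deviation, and the genes share the library and its depth, so these values describe the libraries. Of the 24 libraries, 16 also chose the genes, and genes that share the high level of a single control library were favoured by the rule, so the values over 24, 12 and 20 libraries are partly built in. Those of 0 h are the ones the differences did not use. At 0 h the lower quartile of the pairs was -0.01 and 74.1% were positive, and the median over all pairs of the 19825 genes was 0.09.

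The shared movement was large in some groups of replicates and small in others. In USDA8380-1 controls at 24 h, 95 of the 100 genes were higher in replicate 2 than in replicate 1, by a median of 1.43 on the log2(CPM + 1) scale, while 37.9% of all genes were. In USDA8380-1 controls at 48 h, replicate 3 was higher than replicate 1 for 6 of the 100 genes, with a median of -1.26. In EE501F2_093 with beetles at 48 h, 91 genes were higher in replicate 2, by a median of 0.81, against 44.4% of all genes. In EE501F2_093 at 24 h the replicate differences shared little direction, with signed medians of 0.09 with beetles and 0.04 in the controls. There 61 and 52 of the 100 genes were higher in replicate 2. The median sizes of the gap were 0.32 with beetles and 0.44 in the controls, beside 0.31 and 0.38 for all genes. The median size of the replicate gap exceeded that of all genes in each of the 12 groups, at 0.31 to 1.46 for the 100 genes and 0.25 to 0.60 for all.

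**Figure D5:**
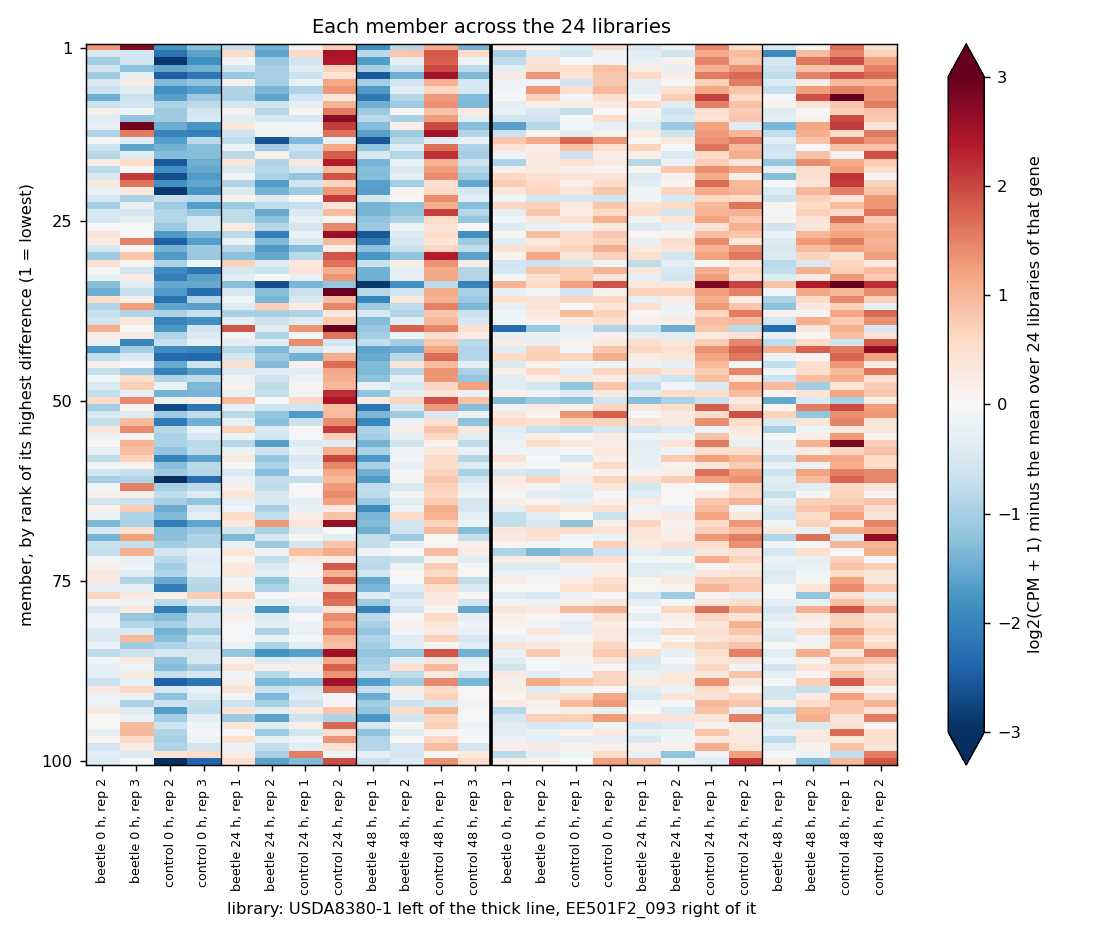
Level of each of the 100 genes (rows, by rank of the highest of the 4 differences) in each of the 24 libraries (columns), as log2(CPM + 1) minus the mean of that gene over all libraries. Red is above and blue below that mean, and the colour scale ends at 3 and -3. Most genes of a column share a colour, with USDA8380-1 control 24 h replicate 2 mostly red and both USDA8380-1 control libraries of 0 h mostly blue.

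Each identifier carries a chromosome number behind the letters DM, and by it the 100 genes were spread over all 12 chromosomes. Chromosome 11 held the fewest, 3 genes or 0.217% of its genes with a mean of at least 1 CPM, and chromosome 10 the highest share, 10 genes or 0.742%, around 0.504% over all. Soltu.DM.12G004820.1 and Soltu.DM.12G004830.1, ranked 1 and 20, were the 2 members that follow each other in the order of the identifiers. Their deviations from the group means correlated at r = 0.97 over the 24 libraries. Soltu.DM.12G004830.1 showed the same pattern at 0 h in USDA8380-1, at 5.29 and 14.2 CPM in the plants assigned to beetles, against 0.424 and 0.700 CPM in the controls. Whether near-identical neighbouring genes shared reads was not tested.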

How the data were processed

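Leaf RNA of 24 pools was sequenced as 50 nt single reads from stranded mRNA libraries, per the labels' protocols. Trimmomatic 0.35, STAR 2.7.3a, Picard and HTSeq were used, per the submitters' processing notes. For parameters, genome build and annotation the entry is: not given in the sources used here. Raw counts of reads per gene were deposited by the authors for 32917 identifiers, and the 5 HTSeq summary lines (a median of 9.99% of reads) stayed out of library sizes and tests.

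CPM are counts per 1000000 counts on genes, with a pseudocount of 1 on the log2 scale. Genes were tested in R 4.3.3 by edgeR 4.0.16 (quasi-likelihood test) with TMM scaling, 24870 genes kept by filterByExpr, 1 fit of 12 groups with 12 residual degrees of freedom, and Benjamini-Hochberg adjustment over all 24870 genes. The threshold was an adjusted p under 0.05. SE stands for the standard error implied by the test statistic. Alternatives were RLE scaling, no filter, DESeq2 1.42.0, the replicate number as a block, the 0 h libraries alone and each library left out. Leaving out libraries for the changes from 0 h and for the counts without overlap was added after seeing the data. The biological coefficient of variation was 0.413.

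The members, lists and tests were chosen with earlier results of these data known. Genes were named by a rule: the first 2 by rank, the 2 most abundant, up to 2 per direction in each 0 h contrast (for the genotype, among genes called), and neighbouring identifiers.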

Additional observations from a re-analysis of the deposited data

Results flagged for a closer look

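The summed CPM of the 100 genes at 0 h differed between the arms in opposite directions in the 2 genotypes, with every library of one arm on one side of the other arm. In USDA8380-1 the mean was 10080 CPM in plants assigned to beetles and 4507 CPM in control plants, a log2 ratio of 1.16. In EE501F2_093 it was 11061 CPM in plants assigned to beetles and 14267 CPM in control plants, a log2 ratio of -0.37. For the sum this opposition was not tested. Gene by gene, edgeR's test of the difference between the genotypes called 0 of the 100 genes, while DESeq2 called 0. An unadjusted p under 0.05 was reached by 15 of the 100 and by 7.34% of all genes. In a fit of the 0 h libraries alone it was reached by 46 of the 100 and by 10.7% of all genes. The shallow library, USDA8380-1 beetle 0 h replicate 3, had a summed 11306 CPM and its replicate 8854, so the direction is the same in both. In 10 sets of 4 libraries of a genotype at 0 h (the mean level, the summed CPM and the 3 genes named in the genotype comparison), no library lay far from the other 3 by Dixon's limits, where chance gives about 1 in 20. Each set held both arms, and a gap between the arms widens its range. The check therefore says little about a single library, the shallow one included.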

How the results depend on the processing

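Of the 100 genes, 80 were chosen again with TMM-scaled CPM, 91 and 92 with pseudocounts of 0.5 and 2, 89 with a minimum mean of 5 CPM and 99 without a filter, but 23 when the 0 h difference of each genotype was subtracted (93 of the 100 then had 4 differences below 0). Leaving out 1 library of 24 or 48 h gave 29 to 85. The median log2 fold change kept its sign under RLE scaling, subtraction of the 0 h contrast and the replicate block in all 4 comparisons. The subtraction moved it to -1.84 and -1.72 in USDA8380-1 and to -0.66 and -0.60 in EE501F2_093 at 24 and 48 h. Without single libraries it was -1.70 to 0.057 in USDA8380-1 at 24 h, with the sign turned (0.057) without control replicate 2, -1.48 to -0.13 at 48 h, -0.95 to -0.87 in EE501F2_093 at 24 h and -1.42 to -0.48 at 48 h.

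For USDA8380-1 at 0 h the 0 calls between the arms became 6 with DESeq2 (1.25% of all genes), 2 in a fit of the 0 h libraries alone (0.131%) and 0 to 4 without 1 library, with 4 beside 4.77% of all genes. The 0 calls of EE501F2_093, of both genotypes averaged and of the difference between genotypes stayed 0 under every alternative run. Of the EE501F2_093 and averaged values of named genes, 2 turned sign: Soltu.DM.06G030110.1 to -0.12 without EE501F2_093 beetle 0 h replicate 1 (range -0.12 to 1.26 without single libraries), and Soltu.DM.10G007030.1 to 0.25 without USDA8380-1 control 0 h replicate 3 (range -4.26 to 0.25). The 31 genotype calls became 55 in the fit of the 0 h libraries alone (22.1% of all genes), 53 over all 3 harvests (39.7%), 36 with DESeq2 (17.8%) and 9 to 16 without 1 library (8.24% to 13.3%). With the replicate number as a block there were 6, all among the 31, beside 9.36% of all genes. The cause of these moves was not tested. The labels do not say what the numbers mark, and pairing was not taken as given: over 5 pairs of groups with the same numbers, replicate differences of the beetle and control arms correlated across genes at -0.17 to 0.16, above 0.1 in 3 of them. The block kept the call of Soltu.DM.08G010200.1 (edgeR adjusted p = 0.0432) and ended those of Soltu.DM.07G027840.1 (0.0973) and Soltu.DM.06G014640.1 (0.0827). With 2 libraries a group, and 1 of 2114184 counts, small differences were not detectable.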
